A study of Mus musculus with 18 samples.

Results

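Dimethylation of histone H3 at lysine 79 (H3K79me2) was compared between mouse Th2 and Th1 cells, the helper T cells that make IL-4, IL-5 and IL-13 or interferon gamma. The comparison used 6 chromatin immunoprecipitation libraries, 3 of Th2 and 3 of Th1 cells, of the 18 samples of the series, which held 9 H3K79me2 libraries and 9 inputs. Each library had 1 list of broad peaks, and the unit of measurement was the protein-coding gene: the percent, or the number of kb, of its body that the merged peaks of a library covered. All 21631 protein-coding genes of chromosomes 1 to 19 and X were measured. Of these, 9914 were at 0 and 723 at 100% in every library, and the remaining 10994 were tested.

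H3K79me2 is laid down by the methyltransferase DOT1L, which travels with the transcription machinery, so the mark forms domains that start at the promoter of a transcribed gene and run into its body. Th1 cells are directed by the transcription factor T-bet, encoded by Tbx21, downstream of IL-12 and interferon gamma. Th2 cells are directed by GATA3, downstream of IL-4, and their cytokine genes lie side by side in one locus.

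Both groups came from enriched CD4+ T cells, with the genotype given as WT, kept for 4 days with plate-bound antibodies to CD3 and CD28 (anti-CD3, anti-CD28). IL-2 was present in every culture. Th1 cultures also received IL-12 with an antibody to IL-4 (anti-IL-4), and Th2 cultures received IL-4 with anti-IFNg. Th1 cells were then sorted on YFP from an IFNg-YFP reporter mouse, and Th2 cells on IL-4 (AmCyan) or IL-13 (dsRed) from the 4C13R reporter mouse. Cytokines, blocking antibody, mouse line and sort therefore changed together with the cell type and cannot be told apart. Values of Ifng, Il4 and Il13, the genes the reporters follow, describe the sort. Whether the 3 libraries per cell type represent different mice or cultures is not in the labels, and p-values refer to the spread among these libraries, part or all of which may be technical. Values are given in the order of replicates 1, 2 and 3.

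The lists held 41504 to 46085 peaks in Th1 and 45894 to 51854 in Th2 libraries and covered 217 to 240.1 Mb and 232 to 249.9 Mb. The covered lengths overlapped between the groups and differed by 14.01 Mb (2-sided exact permutation p = 0.3, where 3 against 3 cannot go below 0.1). Sequencing depth is unknown, so a value of 0 means that no peak was called there. Bases covered in at least 2 of 3 libraries came to 204 Mb in both cell types, 90.7% of the Th1 and 85.9% of the Th2 total. A further 20.8 Mb were covered in Th1 and 33.4 Mb in Th2 cells alone. The T lineage markers were covered in both groups: Cd3d, Cd3e, Lat, Thy1 and Cd2 at 100% in all 6 libraries, Cd4 at 80.0 to 86.4%. Cd3g, Lck and Zap70 were above 80% in every library but lower in Th2 by mean, with −9.99, −7.21 and −5.76 points (limma adjusted p = 0.038, 0.036 and 0.12), and none was called. The B cell markers Ms4a1, Pax5, Blk and Cd79b were at 0 throughout, and Cd79a was at 100% throughout. The 6 myeloid and 6 mast cell and basophil markers did not exceed 5.99%. Coverage of Cd8b1, a CD8 coreceptor chain, was 7.62, 11.9 and 7.55% in Th1 and 17.8, 24.3 and 27.8% in Th2 libraries, a difference of 14.3 points that did not reach the threshold used here. Of the erythroid markers, Epor reached 33.4% in Th2 replicate 1 alone and Klf1 ranged from 20.5 to 45.6%.

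Of the tested genes, 1307 had a limma adjusted p under 0.05. A gene was called when it also differed by at least 25 points in mean percent covered. By this rule 218 genes (1.98% of those tested) were higher in Th2 and 158 (1.44%) were higher in Th1 cells, 3.42% in both directions. A second rule asked for at least 20 kb, since a long gene can gain much sequence at a small percent. It called 137 genes (1.25%) higher in Th2 and 59 (0.537%) higher in Th1 cells, 1.78% in both directions. The percent rule and the kb rule shared 96 genes, and 476 were called by one or the other. The median difference over all tested genes was 0.18 points. The share of Th2 calls in the percent rule was 58.0% and changed with the peaks used. With every list trimmed to the same covered length, keeping the highest −log10 q, the counts were 161 and 204 (44.1% higher in Th2). Trimming removes length and weaker peaks together, so the reason for the change was not tested. With libraries centred to a common mean the share was 54.8%. After a stricter peak filter, −log10 q of 5 or more, the counts were 129 and 156 (45.3%). These included 76 of the 218 and 77 of the 158 genes, so the filter changed which genes were called in both directions. By kb the trimmed lists gave 102 and 86 (54.3% against 69.9%). The kb rule's count of 59 fell to 37, 34, 33 and 34 without Th1 replicate 1, Th1 replicate 2, Th2 replicate 1 and Th2 replicate 2, and its count of 137 fell to 86 without Th1 replicate 2.

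**Figure D1:**
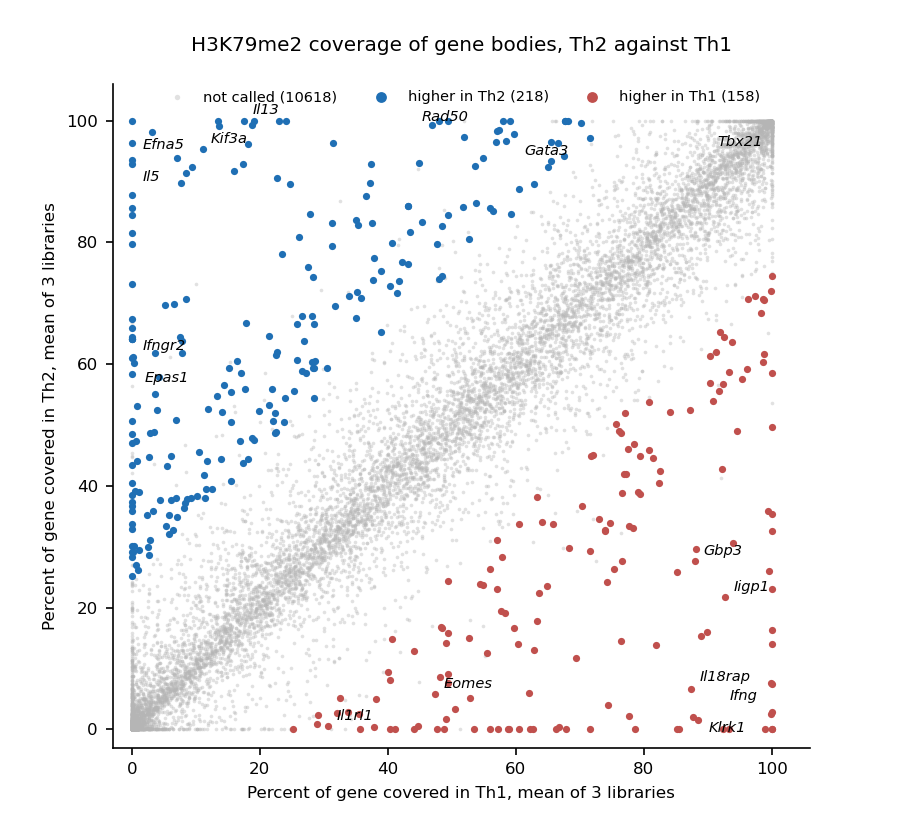
Percent of each tested gene covered by H3K79me2 peaks, mean of 3 Th1 libraries (x axis) against mean of 3 Th2 libraries (y axis), 1 point a gene. The 218 genes called higher in Th2 (blue) include Efna5 and Il5 at 0 on the Th1 axis, and the 158 called higher in Th1 (red) include Klrk1 and Ifng near 0 on the Th2 axis.

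Most called genes had more than 5% covered in the lower group too. Of the 218 genes higher in Th2 cells, 59 had at most 5% covered in Th1 cells, 131 had between 5 and 50%, and 28 already had 50% or more. Of the 158 higher in Th1 cells, 44, 87 and 27 fell in these classes by their Th2 value. A change from at most 5% to at least 95% was seen for 3 genes higher in Th2 and 5 higher in Th1 cells. Only 31 and 27 of the called genes reached 95% in the higher group, so few could show that change. The called genes had median lengths of 21.4 and 18.8 kb against 25.1 kb for all tested genes.

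Averaged over the called genes, coverage was apart at the start and at the end of the gene, although single genes named below had almost no difference at the start. Genes of at least 10 kb whose strand is known were cut into 10 equal parts. In the 118 such genes called higher in Th2, the first part was covered at 42.8% ± 3.06 in Th1 and 74.8% ± 0.691 in Th2 cells, and the last part at 9.15% ± 0.913 and 31.4% ± 1.56 (mean over genes, SD over 3 libraries). In the 91 genes called higher in Th1, the first part was at 83.9% ± 2.98 in Th1 and 51.3% ± 3.00 in Th2 cells, and the last at 37.6% ± 3.89 and 9.69% ± 2.51. These values describe the genes the percent rule chose and carry no test. In the 6815 genes that were not called, the first part was at 68.8% ± 1.15 and 69.7% ± 1.34.

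**Figure D2:**
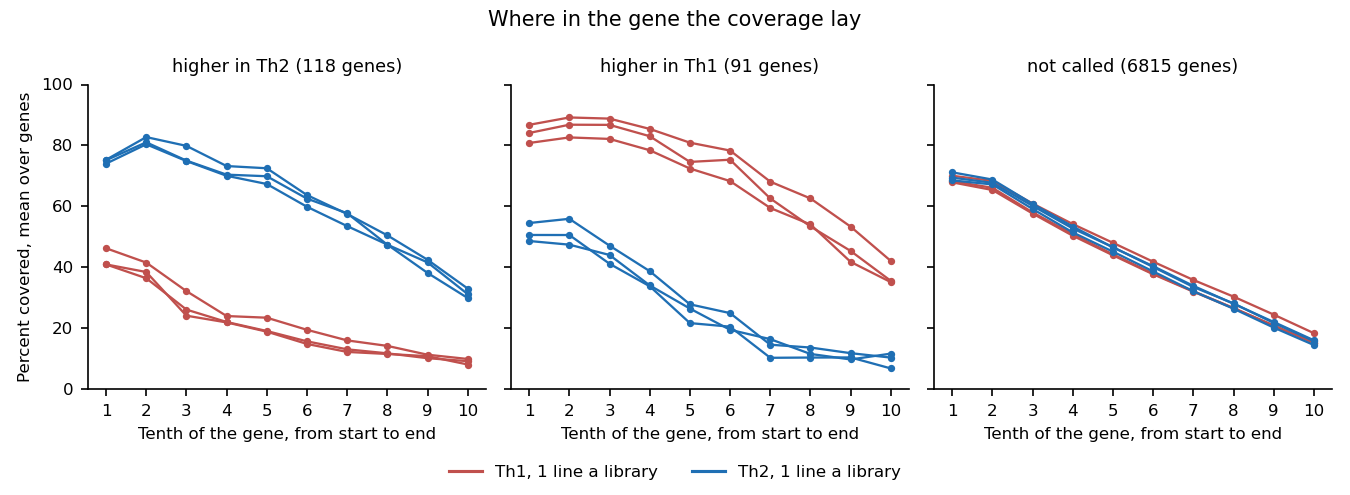
Mean percent covered (y axis) in each of 10 equal parts of the gene from start to end (x axis), 1 line a library, for genes called higher in Th2, called higher in Th1 and not called. Coverage was lower in the last part than in the first in all panels, and the lines of Th1 and Th2 libraries lay apart in every part of the called genes and close together in genes not called.

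The Th2 cytokine locus on chromosome 11 carried H3K79me2 over nearly the full length of its genes in Th2 cells. All 5 protein-coding genes between 53565701 and 53725103, a span of 159 kb (mm10), were called higher in Th2: Kif3a, Il4, Il13, Rad50 and Il5. For Il5, the eosinophil growth factor (chr11:53720794-53725103), coverage was 0, 0 and 0% in Th1 and 78.4, 100 and 100% in Th2 libraries. No Th1 library had a peak in the gene, and the difference was 92.8 points (SE 6.35, limma adjusted p = 0.0012). No reporter of the sort follows Il5, but it lies in the same locus as Il4 and Il13, which the sort followed.

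Il4 (chr11:53612460-53618665) was at 47.1, 0 and 21.8% in Th1 and 100, 100 and 100% in Th2 libraries. Il13 (chr11:53631323-53634702) was at 43.6, 0 and 9.17% against 100, 100 and 100%. Both genes were complete in every Th2 library and partly covered in Th1 replicates 1 and 3. The differences were 77.0 and 82.4 points (limma adjusted p = 0.016 and 0.012), and the adjusted p of Il4 rose to between 0.052 and 0.057 without Th1 replicate 3 or any single Th2 library. With the genes equal in all libraries kept in the adjustment, it was 0.073 for Il4 and 0.058 for Il13.

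The genes beside the cytokines followed the same direction. Kif3a (chr11:53565701-53604248), which encodes a kinesin motor subunit, was at 9.80, 9.01 and 14.5% in Th1 and 94.8, 94.9 and 96.4% in Th2 libraries. The groups lay far apart, by 84.2 points (SE 2.14, limma adjusted p = 4.4e-05) or 32.5 kb. Rad50 (chr11:53649519-53707319), a DNA repair gene whose introns hold the control region of the locus, was at 62.4, 54.2 and 54.6% against 98.6, 96.2 and 100% (41.2 points, limma adjusted p = 0.0010). In the 5 kb at its better-covered end, taken because the table used here gave no strand for Rad50, the difference was 1.29 points and was not called.

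The 250 bases before the start of the 3 cytokine genes are shown because they carried H3K79me2 peaks in every Th2 library. Coverage of these windows was 100% in all Th2 libraries and 0 in all Th1 libraries, apart from 41.6% for Il13 in Th1 replicate 1. The sequences are from RefSeq (GRCm38.p6), read 5′ to 3′ on the strand of the gene, at chr11:53618666-53618915 (minus), chr11:53634703-53634952 (minus) and chr11:53720544-53720793 (plus). Capitals mark matches, on either strand, to 5 motif words. For GATA factors the first word was AGATAA. The second, differing from it at the leading letter, was TGATAA. For T-box factors the word was AGGTGTGA. For STAT factors, TTCNNNGAA was searched, as was the same word with 1 more N in the middle. No word contains another.
Il4: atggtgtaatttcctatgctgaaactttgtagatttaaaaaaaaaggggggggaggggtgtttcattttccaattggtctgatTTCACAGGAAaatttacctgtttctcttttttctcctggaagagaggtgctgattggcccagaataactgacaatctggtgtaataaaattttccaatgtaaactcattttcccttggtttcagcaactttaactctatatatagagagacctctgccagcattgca
Il13: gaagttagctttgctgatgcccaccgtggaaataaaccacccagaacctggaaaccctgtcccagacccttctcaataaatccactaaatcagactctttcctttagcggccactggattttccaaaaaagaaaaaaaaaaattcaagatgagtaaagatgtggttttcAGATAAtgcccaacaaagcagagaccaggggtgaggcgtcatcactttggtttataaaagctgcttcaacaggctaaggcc
Il5: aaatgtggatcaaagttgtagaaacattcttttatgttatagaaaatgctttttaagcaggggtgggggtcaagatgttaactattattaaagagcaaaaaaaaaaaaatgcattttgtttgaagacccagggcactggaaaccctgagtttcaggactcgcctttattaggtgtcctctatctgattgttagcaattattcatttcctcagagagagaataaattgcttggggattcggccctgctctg
Il4 held 1 STAT word with the wider spacing and Il13 held 1 GATA word. None of the 5 words was found in the Il5 window. A match is a description of letters and shows no binding.

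Gata3, the master regulator of Th2 cells (chr2:9857078-9887953), was marked in both cell types but along more of its length in Th2 cells. It was covered at 61.7, 59.4 and 58.0% in Th1 and 96.9, 96.6 and 100% in Th2 libraries. No Th1 library reached the Th2 range, and the difference was 38.1 points (SE 1.65, limma adjusted p = 0.00027). The authors' fold enrichment of its strongest peak, a value within each list, was 5.37, 4.72 and 5.59 in Th1 and 10.7, 11.4 and 12.7 in Th2 lists. At Tbx21, the gene for T-bet, the extent did not separate the cell types: coverage was 100% in 5 libraries and 99.7% in Th2 replicate 2 (−0.092 points, limma adjusted p = 0.95). Its strongest peak had an authors' fold enrichment of 11.4, 8.96 and 8.55 in Th1 and 5.48, 5.23 and 5.38 in Th2 lists. These ratios come from lists of unknown depth and were not tested.

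Of the 27 genes of a list of Th2 genes, 16 could be tested, 6 were at 0 and 5 at 100% in all libraries. By the percent rule 6 were higher in Th2 and 1 was higher in Th1 (1.98 and 1.44% of all tested genes), with a median of 8.23 points against 0.18 over all tested genes. Without Il4 and Il13 the counts were 4 and 1, and Il5 and Rad50 among the 4 lie in the same locus as the sorted genes. Besides the locus genes and Gata3, Epas1, which encodes the hypoxia factor HIF-2 alpha, was higher in Th2. It was covered at 1.21, 0 and 0% in Th1 and 56.4, 58.8 and 65.2% in Th2 libraries. The groups did not overlap, and the difference was 59.7 points or 47.5 kb (SE 2.58 points, limma adjusted p = 0.00027), but with the stricter peak filter it was 43.8 points (0.062). Ccr4, a chemokine receptor of Th2 cells, was at 44.3, 43.0 and 41.8% against 57.6, 56.5 and 60.003%, a difference of 14.99 points (limma adjusted p = 0.0083) that was under the threshold. Pparg, a nuclear receptor of Th2 cells, had 0 in Th1 and at most 4.77% in Th2 libraries, and Il4ra, the IL-4 receptor chain, differed by −1.2 points. Stat6, Maf, Nfil3, Gfi1 and Bhlhe41 were among the genes at 0 or at 100% in all 6 libraries.

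Il1rl1, which encodes the IL-33 receptor ST2 and is counted among Th2 genes, went the other way. Its coverage was 40.1, 34.1 and 17.9% in Th1 and 0.860, 0 and 0.555% in Th2 libraries. The Th2 libraries were nearly bare, and the difference was −30.2 points (limma adjusted p = 0.030). The gene ends just before Il18r1, a Th1 gene that was itself higher in Th1 cells, so the part of a domain running between them was not tested. The adjusted p was 0.055 to 0.10 without Th1 replicate 1, Th1 replicate 2 or any single Th2 library, and the trimmed lists gave −23.6 points. With the stricter peak filter the difference of Il1rl1 was −5.11 points (limma adjusted p = 0.59).

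Of 25 listed Th1 genes 19 were tested: 11 were higher in Th1 and 0 higher in Th2 by the percent rule, and 3 were higher in Th1 by kb. The differences ran from −100 to 7.03 points, 8 of the 19 genes were not called by percent, the median was −35.6 points, against 0.18 over all tested genes, and without Ifng the count was 10 of 18. The lists of Th1 and Th2 genes were drawn up with earlier results of these data known, so that these counts describe them and do not test their direction. Over all tested genes 1.44% were higher in Th1 and 1.98% higher in Th2. Of the Th1 genes that were not tested, 1 was at 0 and 5 were at 100% in all 6 libraries. Xcl1, Lta, Tnf, Irf1 and Fasl were among these untested genes.

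Ifng (chr10:118441046-118445894), the gene of the Th1 reporter, was covered at 100, 100 and 100% in Th1 and 0, 0 and 8.31% in Th2 libraries. This separation, −97.2 points (limma adjusted p = 6.7e-05), is a check of the sort. The chemokine gene Ccl3 (chr11:83647843-83649378) went from 100% in every Th1 to 0 in every Th2 library. Its neighbour Ccl4 was at 91.8, 86.5 and 88.5% against 11.6, 13.9 and 20.5%. The annotated bodies of Ccl3 and Ccl4 overlap, so 1 domain is counted in both. With peaks of −log10 q of at least 5 neither was called: the differences were −66.7 and −71.7 points, against −100 and −73.6 (limma adjusted p = 0.40 and 0.064). Ccl5, another T cell chemokine, was at 37.4, 35.7 and 33.8% against 0, 0 and 0% (−35.6 points, limma adjusted p = 0.00012), and the trimmed lists gave −23.2 points and no call. With the stricter peak filter Ccl5 was equal in every library, so no difference was left.

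The IL-18 receptor genes on chromosome 1 were covered over most of their length in Th1 and little in Th2 cells. Il18r1 (chr1:40465552-40500854), the ligand-binding chain, was at 78.9, 78.6 and 75.5% in Th1 and 0, 2.68 and 3.69% in Th2 libraries. Il18rap (chr1:40515362-40551707), the accessory chain, was at 87.5, 89.0 and 85.7% against 6.03, 1.41 and 12.3%. Neither gene overlapped between the groups. The differences were −75.5 and −80.8 points (SE 1.98 and 3.21, limma adjusted p = 4.9e-05 and 0.00023), or 26.7 and 29.4 kb. Il12rb2, the inducible IL-12 receptor chain, was covered at 97.8, 94.7 and 96.6% in Th1 and 68.3, 69.6 and 74.2% in Th2 libraries. Its coverage was lower in Th2 cells by 25.6 points or 23.2 kb (limma adjusted p = 0.0016), and the gene overlaps another. With the stricter peak filter the difference was −34.2 points and not called (limma adjusted p = 0.13).

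The windows before Ifng (chr10:118440796-118441045, plus) and Il18rap (chr1:40515112-40515361, plus) are shown as the counterpart of the Th2 cytokines: they were covered at 100% in all Th1 and 0 in all Th2 libraries. Source, strand and capitals are as above.
Ifng: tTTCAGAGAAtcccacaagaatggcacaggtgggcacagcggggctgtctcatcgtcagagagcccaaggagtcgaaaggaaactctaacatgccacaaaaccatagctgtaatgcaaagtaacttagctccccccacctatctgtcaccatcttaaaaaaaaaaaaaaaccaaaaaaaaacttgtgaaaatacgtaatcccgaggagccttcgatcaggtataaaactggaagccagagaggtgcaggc
Il18rap: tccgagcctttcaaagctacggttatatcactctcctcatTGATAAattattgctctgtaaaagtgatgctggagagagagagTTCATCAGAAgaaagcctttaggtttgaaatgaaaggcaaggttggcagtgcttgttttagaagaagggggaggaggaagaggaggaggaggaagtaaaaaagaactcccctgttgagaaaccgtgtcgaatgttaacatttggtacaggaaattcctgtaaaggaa
Ifng held 1 STAT word with the narrower spacing, and Il18rap held 1 GATA word and 1 STAT word with the wider spacing. Over all called genes with a promoter in the table, 168 of 218 higher in Th2 and 127 of 158 higher in Th1, AGATAA was found in 8.33 and 6.30% and TGATAA in 5.95 and 8.66%. Over the 8914 tested genes with a promoter these shares were 6.02 and 3.71%, and over all 17274 promoters 9.14 and 7.04%. The T-box word AGGTGTGA stood in 2.38 and 1.57% of the called genes' promoters and in 0.808% of the tested genes'. The STAT word of spacing 3 stood in 1.79 and 7.09% against 6.07%, and that of spacing 4 in 6.55 and 7.87% against 4.61%. No test was made of these shares.

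Hlx and Eomes, transcription factor genes of the list, were called, and Tbx21, Stat4, Runx3 and Bhlhe40 were not. Hlx, a homeobox partner of T-bet, was at 100% in every Th1 library and at 0, 0 and 41.8% in Th2 libraries. Th2 replicate 3 thus stood apart from the other Th2 libraries, and without Th1 replicate 2 the adjusted p of Hlx was 0.052. Eomes, a T-box factor related to T-bet, was at 42.7, 42.7 and 56.7% against 0, 3.01 and 14.5% (−41.5 points, limma adjusted p = 0.011). With equal genes kept in the adjustment the adjusted p was 0.059 for Hlx and 0.055 for Eomes. Ly6c2, a surface marker of effector T cells, was at 100% in the Th1 libraries and at 5.58, 23.7 and 39.8% in the Th2 libraries (−77.0 points, limma adjusted p = 0.0057). Among those not called, Stat4, the IL-12 signal carrier, had −1.8 points, Runx3, a partner of T-bet, −10.04, and Bhlhe40 0.1, none with an adjusted p under 0.2. Cxcr3, a homing receptor, and Nkg7, a granule gene, had −29.0 and −46.4 points but varied between Th2 libraries, from 25.3 to 83.2% and from 0 to 100% (limma adjusted p = 0.33 and 0.32).

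**Figure D3:**
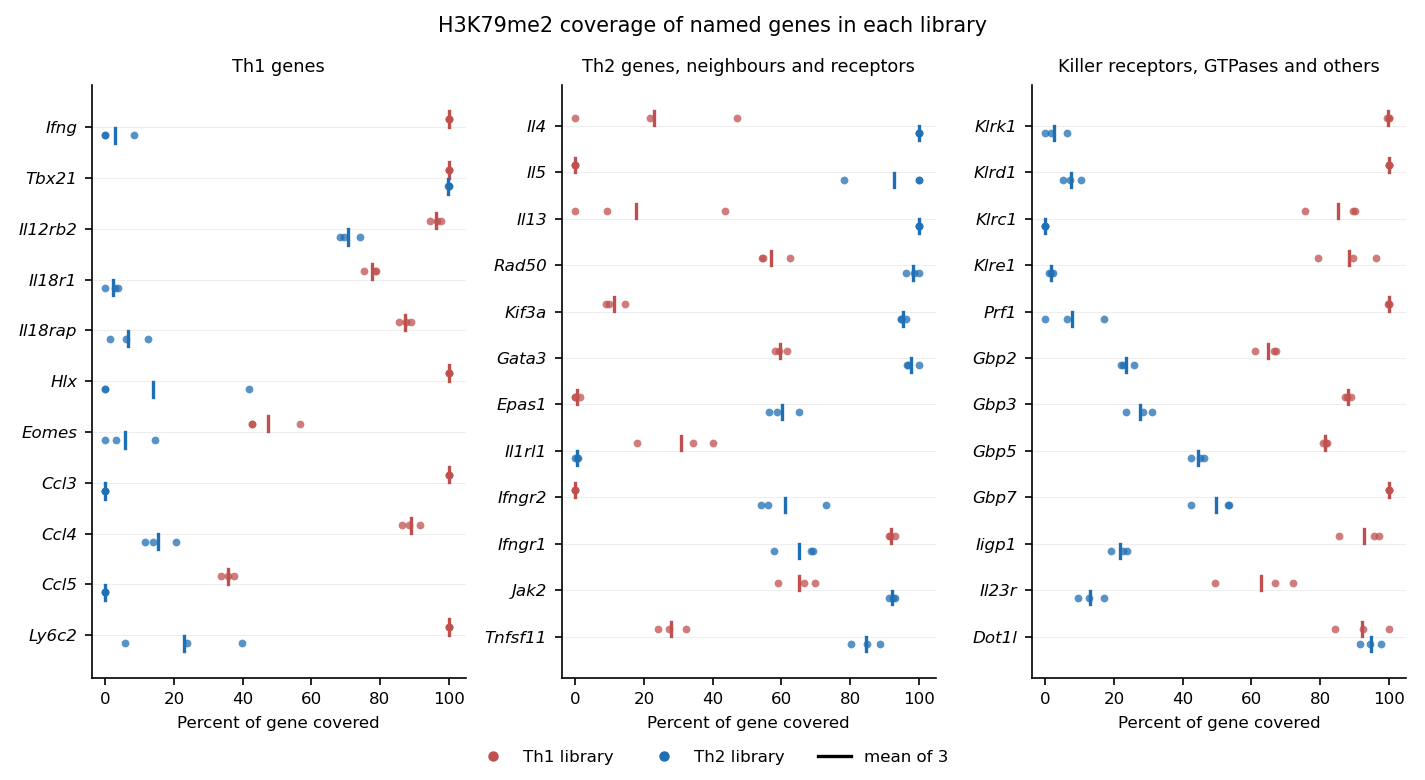
Percent of the gene covered (x axis) for named genes (y axis), 1 point a library, with the mean of 3 as a bar, Th1 in red and Th2 in blue. Ifng, Ccl3, Klrd1 and Gbp7 were at 100% in the 3 Th1 libraries, Il4 and Il13 at 100% in the 3 Th2 libraries, and Tbx21 and Dot1l overlapped between the groups.

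Killer cell receptor genes formed the run with the most called neighbours with higher coverage in Th1 cells. Between 129533192 and 129682852 on chromosome 6, 6 of 7 protein-coding genes were called: Gabarapl1, Klre1, Klrd1, Klrk1, Klrc3 and Klrc1. Klrk1, which encodes the activating receptor NKG2D (chr6:129610323-129623903), was at 100, 100 and 99.5% in Th1 and 0, 1.62 and 6.17% in Th2 libraries. Klrd1, the CD94 chain, was at 100, 100 and 100% against 5.18, 7.08 and 10.3%, and Klrc1, its inhibitory partner NKG2A, at 90.3, 89.7 and 75.5% against 0, 0 and 0%. The groups were far apart at all 3 genes (−97.3, −92.5 and −85.1 points, limma adjusted p = 3.0e-05, 2.4e-05 and 0.00046). Klrc2, the remaining gene of the run, was at 71.1, 41.0 and 19.3% in Th1 and 0 in every Th2 library, with an adjusted p of 0.096 from limma. Klrc3 went from −71.7 to −26.8 points with the stricter peak filter and was then not called (limma adjusted p = 0.64). Gabarapl1, an autophagy gene at the edge of the run, differed by −38.4 points over its body and by −1.28 points, without a call, in the 5 kb at its start.

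In a list of 15 cytotoxic and NK receptor genes, 13 were tested, and 4 were higher in Th1 and 0 in Th2 (1.44 and 1.98% of all tested genes): the 3 receptors above and Prf1. Prf1, which encodes perforin, was at 100, 99.8 and 100% in Th1 and 0, 6.13 and 16.9% in Th2 libraries (−92.3 points, SE 4.49, limma adjusted p = 0.00042). Nearly the whole gene was covered in every Th1 library, and the Th2 libraries stayed at or below 16.9%. The list's median was −4.93 points. Granzyme genes were not called: Gzmb had −4.9 points and was above 90% in all 6 libraries, and Gzmm was at 43.1, 17.8 and 22.3% against 0, 0 and 5.40% (limma adjusted p = 0.074). Among 5 NK cell markers, of which Klrk1 and Klrd1 belong to the list too, mean coverage was 47.9 to 51.1% in Th1 and 19.1 to 21.7% in Th2 libraries, or 25.9 to 26.4 and 4.35 to 4.94 kb in all. The defining markers Ncr1 and Klrb1c were at 0 and at most 2.46%, and Tyrobp, a signalling adaptor, was higher in Th2: 55.4, 42.1 and 37.4% against 100, 100 and 78.95% (48.0 points, limma adjusted p = 0.018, and 0.058 to 0.070 without Th1 replicate 2, Th1 replicate 3, Th2 replicate 1 or Th2 replicate 2). Tyrobp had 42.1 points with the stricter peak filter (limma adjusted p = 0.40).

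Of the 25 interferon response genes listed 16 were tested, and 5 were higher in Th1 and 0 in Th2 (1.44 and 1.98% of all tested genes), with a median of −11.2 points. The 5 were the GTPase genes Gbp2, Gbp3, Gbp5, Gbp7 and Iigp1. Gbp2, Gbp3, Gbp5 and Gbp7, guanylate-binding proteins of cell-autonomous defence, are neighbours on chromosome 3 between 142496934 and 142638008. Gbp3 was at 87.9, 88.9 and 87.4% in Th1 and 28.5, 23.4 and 31.0% in Th2 libraries (−60.4 points, SE 2.42, limma adjusted p = 0.00023). Gbp7 was at 100, 100 and 100% against 42.5, 53.4 and 53.1% (−50.3 points, limma adjusted p = 0.0010). Both were marked in Th2 cells too, over less of the gene. Gbp2 and Gbp5 had −41.4 and −37.0 points (limma adjusted p = 0.00084 and 0.00034), and the fifth gene of the run, Gbp2b, had −14.7 points and was not called. In the 5 kb at the gene start, Gbp5 had −0.467 points and Gbp7 −7.83, and neither was called there, so that their differences lay farther into the gene.

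Iigp1, an immunity-related GTPase gene, was at 97.0, 85.5 and 95.6% in Th1 and 19.1, 22.5 and 23.6% in Th2 libraries (−71.0 points, SE 3.62, limma adjusted p = 0.00045). The other interferon response genes tested did not pass: Stat2 had −18.5 points (limma adjusted p = 0.060), Gbp4 −15.5 (0.051), Nlrc5, an activator of MHC class I genes, −8.9 (0.048, under the threshold of points), and Isg15 2.4. Antigen presentation genes Tap1, Psmb8, Psmb9 and B2m were equal in all 6 libraries. Of the untested genes of this list, 1 was at 0 and 7 were at 100% throughout.

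Gene body coverage of the 2 interferon gamma receptor chains moved in opposite directions. Ifngr1 (chr10:19591949-19610229), the ligand-binding chain, was at 93.1, 91.6 and 91.2% in Th1 and 57.9, 69.3 and 68.5% in Th2 libraries. Ifngr2 (chr16:91547059-91564007), the signalling chain, was at 0, 0 and 0% in Th1 and 56.0, 73.0 and 54.0% in Th2 libraries. Neither gene overlapped between the groups. The differences were −26.7 points (SE 3.35, limma adjusted p = 0.0085) and 61.0 points (SE 5.30, limma adjusted p = 0.0025). In the 5 kb at the start of the genes they were −1.88 and 8.37 points, and neither was called there. No Th1 library had a peak in Ifngr2, so the 8.37 points were its Th2 coverage at the start. The 250 bases before Ifngr2 were at 0 in every library. The Th2 peaks of Ifngr2 thus lay mostly farther into the gene. Ifngr1 also fell under the threshold of points without Th2 replicate 1 (−23.0) and with the stricter peak filter (−23.3).

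In the list of 31 cytokine receptor and JAK-STAT genes that held both chains, 23 were tested, 2 were higher in Th2 and 1 in Th1 (1.98 and 1.44% of all tested genes), and the median was −0.183 points. The other gene higher in Th2 was Jak2, a kinase of the interferon gamma and IL-12 receptors, at 69.9, 59.0 and 66.5% against 92.6, 91.3 and 93.0% (27.2 points, SE 2.98, limma adjusted p = 0.0054). Without Th1 replicate 2 the difference was 24.1 points and under the threshold, and with the stricter peak filter it was 20.3 (0.32). Il2ra, the high-affinity IL-2 receptor chain, had 93.4, 91.7 and 90.5% against 79.04, 79.7 and 80.7%, a difference of −12.1 points (limma adjusted p = 0.0036) below the threshold of points. Stat3, Stat5a, Stat5b, Jak1 and Il2rb differed by less than 2 points each.

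The lists of other helper lineages, of the naive state and of activation each gave 1 call by percent, among 11, 13 and 12 tested genes, where 3.42% of all tested genes were called. Il23r, the IL-23 receptor gene of Th17 cells and the neighbour of Il12rb2, was at 72.1, 66.9 and 49.5% in Th1 and 12.8, 9.34 and 17.1% in Th2 libraries (−49.7 points or −34.3 kb, SE 6.31 points, limma adjusted p = 0.0089). It was the call of the list of other lineages. Nrp1, a semaphorin coreceptor, was called by kb: 17.5, 13.2 and 14.99 kb against 59.2, 43.8 and 52.0 kb (limma adjusted p = 0.0064). The Nrp1 call was lost with the trimmed lists (limma adjusted p = 0.059) and with the stricter peak filter (2.18 points against 24.8, adjusted p = 0.50). Tnfsf11, which encodes the cytokine RANKL, was at 32.2, 27.3 and 24.1% against 88.9, 85.0 and 80.2% (56.8 points, SE 3.27, limma adjusted p = 0.00068), the call of the activation list.

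Among 13 tested naive and quiescence genes, Tox, an HMG-box factor of T cells, was higher in Th2 with 112, 114 and 157 kb against 221, 229 and 223 kb (96.8 kb, limma adjusted p = 0.011). With trimmed lists the adjusted p of Tox was 0.12. Foxp1, a factor of T cell quiescence, was covered over 540, 534 and 545 kb of its 597 kb in Th1 and 508, 515 and 514 kb in Th2 libraries. This was a call of the kb rule (−27.3 kb, limma adjusted p = 0.044) that no single library could be spared for: the adjusted p was 0.087 to 0.12 without each of the 6 in turn. It was 0.054 with the stricter peak filter. Lef1, Satb1 and Bach2, other factors of naive T cells, differed by less than 1 point, and Tcf7 by 13.2 points (limma adjusted p = 0.016).

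No gene was called among 14 tested glycolysis genes, 14 cell cycle genes, 16 homing and adhesion genes, 9 genes of DOT1L and its partners and 6 housekeeping genes. With 3.42% of all tested genes called, the overall share would give less than 1 call in a list of this size. Their medians lay between −4.08 and 1.01 points. By limma's unadjusted test across all genes 2814 of 10994 had a p under 0.05, so the absence of calls in these lists does not show equality. Dot1l was at 100, 84.2 and 92.6% in Th1 and 97.9, 91.6 and 94.7% in Th2 libraries (2.44 points, limma adjusted p = 0.77). Among 18 tested sterol and fatty acid genes Sc5d, a late enzyme of cholesterol synthesis, was the 1 call: 91.8, 85.8 and 100% against 73.7, 60.1 and 59.4% (−28.2 points, limma adjusted p = 0.031). The adjusted p of Sc5d was 0.056 to 0.096 without Th1 replicate 1, 2 or 3 or Th2 replicate 2 or 3, and with the stricter peak filter Sc5d had −20.1 points (0.41).

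**Figure D4:**
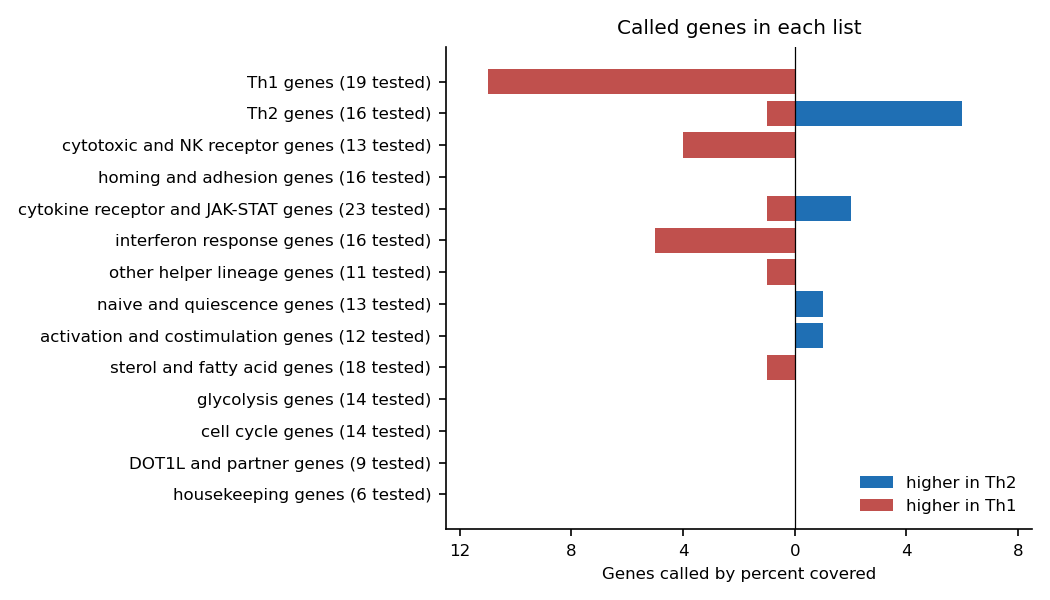
Number of genes called by percent covered (x axis) in each of 14 gene lists (y axis, tested members in brackets), higher in Th1 to the left and higher in Th2 to the right. The Th1 list had 11 calls, the Th2 list 7, the interferon response list 5 and the cytotoxic list 4, and 5 lists had 0, where 3.42% of all tested genes were called.

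Long genes carried the largest amounts of changed sequence. Summed over its genes, the kb rule gave 7225 kb higher in Th2 and 2276 kb higher in Th1 cells. These genes had median lengths of 178 and 139 kb. Efna5 (chr17:62602957-62881317), which encodes the Eph receptor ligand ephrin-A5, was covered over 0, 0 and 0 kb in Th1 and 259, 259.6 and 263 kb in Th2 libraries. Peaks thus covered most of the gene in every Th2 list and none of it in any Th1 list (93.6 points, SE 1.56, limma adjusted p = 1.7e-05). The 250 bases before its start (chr17:62881318-62881567, minus) were also covered at 100% in every Th2 library and at 0 in every Th1 library. They are shown because this gene had the largest difference in kb among genes that overlap no other, and they held none of the 5 motif words.
Efna5: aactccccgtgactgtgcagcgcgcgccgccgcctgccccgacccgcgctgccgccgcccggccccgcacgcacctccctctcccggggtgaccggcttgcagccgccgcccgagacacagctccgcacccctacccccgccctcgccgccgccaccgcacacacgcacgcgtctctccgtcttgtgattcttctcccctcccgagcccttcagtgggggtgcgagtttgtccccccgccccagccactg

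Tanc2, a scaffold protein gene, had a similar pattern, with 0.5, 0.930 and 0 kb in Th1 and 207, 209.6 and 206 kb in Th2 libraries (207 kb, limma adjusted p = 2.4e-05). Arhgap15, a Rac inhibitor, was covered over 275, 237 and 224 kb in Th1 and 478, 505 and 519 kb in Th2 libraries (255 kb, limma adjusted p = 0.0015). Tiam1, a Rac activator, had 117, 89.8 and 82.1 kb against 219.5, 235 and 231 kb (132 kb, limma adjusted p = 0.0024), and Chn2, a Rac inhibitor, had 3.50, 2.29 and 0.297 kb against 115, 113 and 119 kb (114 kb, limma adjusted p = 4.4e-05). Arhgap15 and Tiam1 were already covered in part in Th1 cells, whereas Chn2 was nearly bare there. With peaks of −log10 q of at least 5 Tiam1 and Chn2 had 11.7 and 1.79 points, against 36.8 and 43.4, and were not called (limma adjusted p = 0.36 and 0.64). Arhgap15 had 14.4 points there, against 39.5, and stayed called by kb only (limma adjusted p = 0.027).

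Adk, which encodes adenosine kinase, had 58.1, 52.9 and 47.0 kb against 205, 224 and 222 kb (164 kb, limma adjusted p = 0.00039). Adamtsl3, a secreted matrix protein gene, had 0 kb in every Th1 library and 102, 95.8 and 124 kb in Th2 libraries (limma adjusted p = 0.0013). With the stricter peak filter Adk and Adamtsl3 had 18.7 and 24.8 points, against 41.5 and 38.4. Both stayed called by kb only (limma adjusted p = 0.0061 and 0.014). In the 5 kb at the gene start they had 17.3 and 46.9 points and were not called (limma adjusted p = 0.36 and 0.084). Fars2, a mitochondrial tRNA synthetase gene, had 196, 178 and 170 kb against 309, 300.5 and 353 kb (139.8 kb, limma adjusted p = 0.0070). In the 5 kb at its start Fars2 did not differ beyond the threshold, and the sign turned (−0.153 points). Fars2 had 16.01 points with the stricter peak filter, against 33.3, and was not called (limma adjusted p = 0.32). The calls of Nfia, a transcription factor gene (153 kb), and Igf1r, a growth factor receptor gene (101 kb), were less firm. Nfia went from 28.2 to 3.20 points with the stricter peak filter (limma adjusted p = 0.43). The adjusted p of Nfia was 0.070 to 0.095 without Th1 replicate 1, 2 or 3 or Th2 replicate 2, and that of Igf1r was 0.080 to 0.0996 without any single library but Th1 replicate 3.

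In the direction of Th1 the differences in kb were smaller. Dock9, an activator of the GTPase Cdc42, was covered over 128, 126 and 122 kb in Th1 and 39.8, 41.6 and 49.3 kb in Th2 libraries (−82.0 kb, limma adjusted p = 0.00051). Gnaq, a G protein alpha subunit gene, had 243, 241 and 236 kb against 156, 151 and 182 kb (−77.1 kb, limma adjusted p = 0.0059). Dgkh, a diacylglycerol kinase gene, had 79.6, 76.3 and 73.7 kb against 20.6, 20.6 and 25.8 kb (−54.2 kb, limma adjusted p = 0.00051). At all 3 genes every Th1 library exceeded every Th2 library. Srgap3, a Rac inhibitor, and Fggy, a carbohydrate kinase gene, had −56.6 and −52.4 kb (limma adjusted p = 0.011 and 0.00025). Fggy went from −14.2 to −5.56 points with the stricter peak filter and was not called (limma adjusted p = 0.15).

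The calls of another 5 long genes higher in Th1 cells were lost when single libraries were left out. As at Dock9, Gnaq and Dgkh, every Th1 library exceeded every Th2 library at these genes. All were chosen for their large differences, so this separation adds no support to the calls. Eps8, an actin regulator, had the largest difference of this direction among named genes that overlap no other, −86.3 kb (limma adjusted p = 0.028). It had 132, 129.5 and 123 kb in Th1 and 30.5, 17.4 and 77.2 kb in Th2 libraries. Tmem163, a zinc transporter gene, had −85.5 kb (0.020), Chst11, a chondroitin sulfotransferase gene, −59.8 kb (0.030), Niban1, a stress response gene, −58.9 kb (0.017), and Ptpre, a tyrosine phosphatase gene, −56.0 kb (0.046). Th2 replicate 3 was the highest Th2 library at Eps8, Tmem163 and Chst11. The adjusted p of Eps8, Tmem163 and Chst11 was 0.065 to 0.092, 0.052 to 0.071 and 0.064 to 0.099 without any single library but Th2 replicate 3. That of Ptpre was 0.074 to 0.14 without any single library but Th1 replicate 3, and that of Niban1 0.0505 to 0.067 without Th1 replicate 2, Th2 replicate 2 or Th2 replicate 3. With the stricter peak filter Niban1 and Ptpre had −31.6 and −15.7 points, against −39.2 and −37.7, and were not called (limma adjusted p = 0.39 and 0.61). Chst11 had −75.8 points under this filter, against −28.3 (limma adjusted p = 0.00051).

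**Figure D5:**
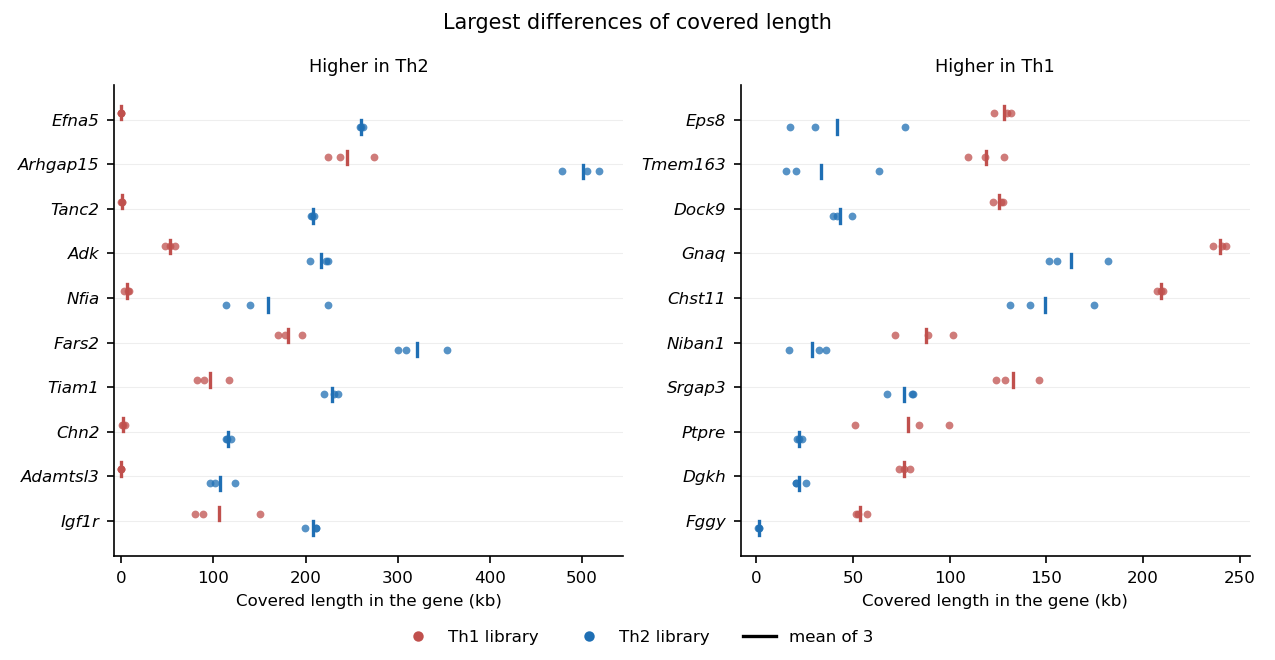
Covered length in kb (x axis) for the 10 genes with the largest difference in each direction among those that overlap no other gene (y axis), 1 point a library, with the mean of 3 as a bar, Th1 in red and Th2 in blue. Efna5, Tanc2, Chn2 and Adamtsl3 were at or near 0 in Th1 libraries, and the Th2 points of Eps8 and Tmem163 spread more widely than their Th1 points.

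Some of the most complete changes by percent lay in genes outside the lists. P2ry1, an ADP receptor gene (chr3:61002785-61008982), was at 0, 0 and 0% in Th1 and 94.6, 98.1 and 96.3% in Th2 libraries (96.4 points, SE 1.76, limma adjusted p = 1.9e-05). Nrgn, which encodes the calmodulin-binding protein neurogranin, was at 0 in the Th1 libraries and at 85.5, 83.9 and 87.4% in the Th2 libraries (85.6 points, limma adjusted p = 2.4e-05). Cd83, an activation marker, was at 0 against 100, 81.6 and 72.1% (84.6 points, limma adjusted p = 0.0023). No Th1 library had a peak in these 3 genes. Marcks, a substrate of protein kinase C, rose from 27.3, 13.7 and 0% to 100, 97.3 and 100% (limma adjusted p = 0.0020), and Rtn4rl1, a Nogo receptor homologue gene, from 6.11, 5.09 and 10.2% to 90.8, 97.4 and 93.4% (7.9e-05, but 53.9 points and 0.19 with the stricter peak filter). Rab20, a vesicle GTPase gene, Cystm1, Htr1b, a serotonin receptor gene, and Timd2, a TIM family receptor gene, were higher in Th2 by 80.5, 83.0, 73.1 and 67.5 points. Of these, Htr1b and Timd2 had 27.8 and 36.4 points with the stricter peak filter and were not called (limma adjusted p = 0.64 and 0.18). In the 5 kb at its start Timd2 had 6.27 points and was not called.

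In the other direction Kcnj8, a potassium channel gene, was at 100, 83.4 and 96.7% in Th1 and 0, 0 and 0% in Th2 libraries (−93.4 points, SE 4.59, limma adjusted p = 0.00042). Only the Th1 libraries had peaks there, though with the stricter peak filter the difference was −13.4 points (limma adjusted p = 0.64). Serpinb5, a serpin gene, was at 79.5, 79.4 and 77.2% against 0, 0 and 0% (−78.7 points, limma adjusted p = 2.4e-05), and Gcnt1, which builds the core-2 O-glycans of selectin ligands, at 69.8, 64.8 and 65.9% against 0, 1.36 and 0% (−66.4 points, limma adjusted p = 6.5e-05). Ffar2, a short-chain fatty acid receptor gene, was at 100% in the Th1 libraries and at 3.57, 7.03 and 38.2% in the Th2 libraries (−83.7 points, limma adjusted p = 0.0061). Fam20a, a secretory pathway pseudokinase gene, Slc4a11, a membrane transporter gene, and Tmem159 had −85.7, −70.4 and −66.3 points. Plac8, a gene of effector lymphocytes, had −68.1 points (limma adjusted p = 0.016), with 37.6% in Th2 replicate 3 against 3.06 and 0.905% in the other Th2 libraries. The adjusted p of Plac8 was 0.0504 to 0.060 without Th1 replicate 1, 2 or 3 or Th2 replicate 1.

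Some called genes of 1 direction lay next to each other. Counting genes whose neighbours were within 100 kb, 60 of the 158 genes higher in Th1 (38.0%) fell in 24 groups and 39 of the 218 higher in Th2 (17.9%) in 17 groups. Neighbours can share 1 domain, so the members of a group are not independent. The groups with the most called genes were the killer receptor genes with 6, the Th2 cytokine locus with 5, the GTPases on chromosome 3 with 4, and a group on chromosome 1 between 74124433 and 74279589. Another 6 groups had 3 called genes each, among them Il1rl1, Il18r1 and Il18rap. In the group on chromosome 1, 4 of 6 genes were called higher in Th1: Rufy4, Cxcr2, Cxcr1 and Gpbar1. Cxcr2, a receptor for neutrophil chemokines, was at 100, 88.3 and 76.2% in Th1 and 24.0, 30.3 and 34.4% in Th2 libraries (−58.6 points, SE 6.59, limma adjusted p = 0.0059), and Cxcr1, its relative, at 100% in the Th1 libraries and at 13.6, 52.3 and 40.3% in the Th2 libraries (−64.6 points, 0.016). Arpc2, an actin nucleation gene in between, was above 95% in every library, and Tns1 below 9%. Without single Th1 libraries the adjusted p of Cxcr1 was 0.0502 to 0.062. That of Gpbar1 was 0.075 to 0.094 without any single library but Th1 replicate 3, and that of Rufy4, which overlaps another gene, 0.054 to 0.12 without any single library but Th1 replicate 3. With the stricter peak filter Gpbar1 and Rufy4 had −43.4 and −25.4 points, against −53.4 and −47.8, and were not called (limma adjusted p = 0.40 and 0.42). Cxcr1 had −100 points under this filter, against −64.6 (limma adjusted p = 2.5e-06).

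The threshold of 25 points cut through a continuous range. Just inside it lay Col15a1, Slfn5 and Shld1 at 25.2, 25.2 and 25.3 points and Zbed3, Nbeal2 and Rnf125 at −25.1, −25.1 and −25.2. Just outside lay Nrp1, Rpl19 and Ccdc22 at 24.8, 24.8 and 24.6 and Ostm1, Mtmr6 and Helz2 at −24.9, −24.9 and −24.8. All 12 had a limma adjusted p under 0.05, so that the listed counts would shift with a small change of the cut.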

How the data were processed

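Mapped H3K79me2 reads were reduced to broad peaks by the authors, 1 list per library. The tools named in the submitters' processing notes are MACS2, Bowtie2, SAMtools and Picard, and the build is mm10; versions, settings, depth and the use of the inputs are not given in the sources used here. The authors deposited for each peak its start and end (in bases), a fold enrichment (a ratio) and a −log10 q value; fold was used only to describe a peak within its list, and −log10 q only as a filter.

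Peaks on chromosomes 1 to 19 and X were merged within a library, and the percent and kb of each protein-coding gene they covered were measured on the RefSeq table of GRCm38.p6, the assembly of mm10. Of 21631 genes 3841 (17.8%) overlap another, and their values are uncertain. Strand came from the RefSeq promoter table, which held 17274 of the genes; for the others the 5-kb window at the gene start was set at the better-covered end. Coordinates are 1-based. Genes equal in all 6 libraries were left out. Percent covered was compared with limma 3.58.1 in R 4.3.3 (lmFit and eBayes with a variance trend, 4 residual degrees of freedom) and Benjamini-Hochberg adjustment over 10994 genes, and all adjusted p-values are from that fit. Genes without spread between libraries owe their p to the variance borrowed from other genes. Tested on simulated data with 10787 genes, the fit recovered 86% and 82% of 100 genes each moved by 30 and −30 points and 94% and 98% of those moved by 50 and −50 points, with 7 false calls. In the simulation the spread was drawn for each gene separately. Shifts shared by the genes of 1 library were thus absent, and the rates may differ for the real lists. Per-library totals were compared with 2-sided exact permutation tests. Tables and figures were made with Python 3.11.15, numpy 2.4.6, pandas 2.3.3 and matplotlib 3.10.9.

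The genes and the 14 lists (264 genes) were chosen with earlier results of these data known. Named are the called list members, the 10 largest differences by kb and by percent (genes of at least 5 kb) per direction that overlap no other gene, the sort reporters, Tbx21, Gata3, Dot1l, the cell type markers, the 3 genes on each side of the threshold and the 5 groups of called neighbours with the most called genes, the fifth being the first in chromosome order of 6 groups tied at 3. A few results that this rule names are not reported here. Other genes named are list members or neighbours that were not called. No sign of pairing by replicate number was seen: deviations of same-numbered Th1 and Th2 libraries had correlations of −0.041, −0.038 and −0.072 across genes. Libraries of unlike number had −0.025 to 0.064. With 3 libraries per group this cannot exclude a pairing. The alternatives changed the peak filter, the covered length, the joining of peaks, centring, the window, the gene filter, the variance model, the scale, the block, the threshold and the libraries included.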

Additional observations from a re-analysis of the deposited data

How the results depend on the processing

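Depth is unknown and limits every value: a peak list does not separate a weak domain from none. After the stricter peak filter (−log10 q of 5 or more), percent-rule calls higher in Th2 fell to 129 and kb-rule calls to 68, the difference in covered length was 2.14 Mb, and that in peak number turned from 5576 to −461. With constant genes kept in the adjustment, calls were 141 (Th2) and 104 (Th1) by percent and 33 (Th1) by kb. With the replicate number as a block (a replicate block, 2 residual degrees of freedom) they were 139 and 93 by percent and 63 and 23 by kb. Same-numbered libraries are known to share only the number. At 40 points or 40 kb the calls were 95, 83, 63 and 18. Leaving out 1 library in turn gave 157 to 210 and 122 to 160 by percent and 86 to 148 and 33 to 63 by kb. The gene-start window gave no kb counts. Fars2 turned to −0.153 points there. Of 88 named called genes, 10 lost the call with trimmed lists, 21 with constant genes kept, 27 with the block and 13 to 22 without 1 library. With the stricter peaks 28 of 84 lost it, and at the gene start 27 of 80, where 1 reversed. The named genes missing from the 84 and the 80 were equal in every library there and had no call either. Causes were not tested.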

Other observations

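Some gene families outside the lists were chosen after their values were seen. Akr1c12, Akr1c13 and Akr1c18, neighbouring aldo-keto reductase genes of steroid metabolism on chromosome 13, were covered at most 2.11% in any Th1 library. In Th2 libraries they were at 45.0, 40.2 and 66.8%, at 45.4, 42.3 and 54.2%, and at 33.1, 33.1 and 45.9% (limma adjusted p = 0.012, 0.0012 and 0.0039). Id1, an inhibitor of helix-loop-helix factors, was at 0 in the Th1 libraries and at 83.1, 100 and 80.0% in the Th2 libraries (87.7 points, limma adjusted p = 0.00095). Calcrl, a receptor gene for adrenomedullin and related peptides, had 11.2, 8.09 and 6.15% against 70.8, 68.8 and 72.6% (62.2 points, limma adjusted p = 0.00014). The limma adjusted p of Akr1c12 was 0.052 without Th1 replicate 2. After the stricter peak filter Akr1c12, Akr1c13 and Akr1c18 were each equal in every library, so no difference was left.

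In Th1 cells Ffar3, the neighbour of Ffar2 and like it a short-chain fatty acid receptor gene, was at 100% in all 3 libraries and at 0 in all Th2 libraries (limma adjusted p = 1.4e-05). Ifitm3, an antiviral membrane protein gene, was at 100, 100 and 77.3% against 0, 0 and 0% (−92.4 points, limma adjusted p = 0.0014). The ephrin genes went both ways: Efna1 was at 56.1, 43.3 and 43.6% in Th1 and 0 in Th2 libraries (−47.7 points, limma adjusted p = 0.0018), the reverse of Efna5. Of the class 4 semaphorins, Sema4a was at −31.6 points, and Sema4b and Sema4f were at 45.3 and 38.1 points (limma adjusted p = 0.0066, 0.00045 and 0.017). Sema4c, Sema4d and Sema4g were not called. The limma adjusted p of Sema4f was 0.056 to 0.063 without Th1 replicate 2, Th2 replicate 2 or Th2 replicate 3. After the stricter peak filter the limma adjusted p was 0.64 for Ffar3, 0.40 for Ifitm3 and 0.19 for Sema4a. Efna1 was then equal in every library, with no difference left. Furin, a proprotein convertase gene, fell from 100, 100 and 99.7% in Th1 to 72.4, 72.8 and 70.6% in Th2 libraries (limma adjusted p = 0.00017).

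Th2 replicate 3 was the single highest Th2 library at 80 of the 132 genes called higher in Th1 that had one (60.6%), against 45.2% of tested genes. Th1 replicate 1 was the single highest Th1 library at 59.1% of the genes called higher in Th2, against 64.6% of tested genes. These were also the libraries of each group with the largest covered length, 249.9 and 240.1 Mb.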
